A study of Mus musculus with 6 samples.

Results

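Many microRNAs (miRNAs) are encoded inside protein-coding host genes, and 7 of the 380 named miRNAs on a mouse exosome PCR panel are described here. They are miR-489 (Calcr), miR-28 (Lpp), miR-151-3p (Ptk2), miR-340-3p (Rnf130), miR-425 (Dalrd3), miR-501-3p (Clcn5) and miR-652 (Tmem164). They were chosen by name, with their measured values and their differences between the groups already known, so the comparison of the groups is a description of the members and supports nothing further about them. All 7 gave a threshold cycle (Ct) in all 6 samples, whereas 257 of the 380 named miRNAs gave none. Of the 384 wells, 0 had a Ct in only some of the samples. A missing Ct is therefore not read here as absence in each sample.

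The RNA was that of exosomes, vesicles shed by cells and carried in serum, from mice 2 weeks after ACLT. This is read here as anterior cruciate ligament transection, surgery that destabilises the knee and leads to osteoarthritis. There were 3 vehicle and 3 OCExoInhib samples, and mice of both groups carried the ACLT. The labels give no strain, sex, age or dose and do not spell out OCExoInhib, which the known study describes as blocking the exosome release of osteoclasts, the cells that resorb bone. Exosomal miRNA of 3 mice per group was pooled per the design text, and whether a group's 3 samples are individual mice or repeat runs of its pool is not stated, so the p-values given here reflect the variation among these samples alone, and it may be technical variation. Serum vesicles come from many tissues, and fewer vesicles of a type cannot be told apart from less miRNA per vesicle.

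A miRNA within a host gene is usually transcribed together with it, the hairpin is cut from the transcript by Drosha and Dicer, and an arm of the hairpin (5p or 3p) is loaded into an Argonaute protein. Target messages are then recognised mainly through the seed, bases 2 to 8 of the mature miRNA. Calcr encodes the calcitonin receptor, which is abundant on osteoclasts and through which calcitonin restrains bone resorption. Ptk2 encodes focal adhesion kinase and Lpp a LIM-domain protein of focal adhesions, while Clcn5 encodes an endosomal chloride and proton exchanger. Rnf130 encodes a RING-finger protein, Dalrd3 a DALR domain protein and Tmem164 a transmembrane protein.

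The mature sequences that the panel's table gives for the members are shown because relatedness of sequence and the arm measured bear on the comparisons that follow. Each runs 5′ to 3′, with the seed in capitals.
miR-489: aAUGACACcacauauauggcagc
miR-425: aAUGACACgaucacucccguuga
miR-501-3p: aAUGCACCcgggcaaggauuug
miR-652: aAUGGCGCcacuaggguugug
miR-28: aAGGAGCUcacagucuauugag
miR-151-3p: cUAGACUGaggcuccuugagg
miR-340-3p: uCCGUCUCaguuacuuuauagc

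miR-489 and miR-425 carry the same seed, and no other miRNA on the panel shares it. They are identical over their first 8 bases and at 12 of 23 positions in all. miR-501-3p shares its seed with a single other panel miRNA, miR-500, from the same host gene. The seeds of miR-652, miR-28, miR-151-3p and miR-340-3p occur once each on the panel. Of the 7 members, 4 begin with AAUG, as do 5 of the 115 tested miRNAs (4.35%) and the same number of the 380 on the panel, the fifth being miR-500. The members were 21 to 23 bases long with a median GC content of 47.8%, against 45.5% for all tested miRNAs.

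Of the 7 panel sequences, 6 were identical to a mature miRNA in RefSeq (GRCm38.p6), which also settles the arm where the panel name gives none. miR-489 is the 3p arm at chr6:3721922-3721944 on the minus strand, inside Calcr. miR-28 is miR-28a-5p at chr16:24827868-24827889 (plus strand), inside Lpp. miR-340-3p lies at chr11:50069762-50069783 (plus strand), inside Rnf130. miR-425 is the 5p arm at chr9:108568789-108568811 (plus strand), inside Dalrd3. miR-501-3p lies at chrX:7241270-7241291 (minus strand), inside Clcn5, and miR-652 is the 3p arm at chrX:142739060-142739080 (plus strand), inside Tmem164. For these 6 the strand equalled that of the host gene. The Mir151 hairpin lies at chr15:73254815-73254882, inside Ptk2. Gene spans only were read, so the exon or intron that holds each hairpin was not looked up here.

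In the samples from OCExoInhib-treated mice miR-501-3p, miR-28 and miR-425 were higher, and miR-652, miR-340-3p and miR-151-3p were lower, than in vehicle samples. For miR-489 the groups overlapped, and its difference was smaller than its standard error (SE). The log2 level used here is the negative of the deposited normalized value, which subtracts the mean of wells P21 to P23 from the Ct, and differences are OCExoInhib minus vehicle. An earlier Ct means more template, with about 1 doubling per cycle. In the fit across all 115 miRNAs that reached a Ct under 35 in 3 or more samples (limma, Benjamini-Hochberg adjusted p under 0.05), 3 of the 7 members were called higher and 3 lower, beside 6.09% and 17.4% of all tested miRNAs. The groups did not overlap for 6 members, beside 26.1% of all tested miRNAs. These counts follow from how the members were chosen, and no p-value is given for them. miR-28, miR-501-3p and miR-425 met the limit of Ct 35 only through the group in which they were high, since 3, 3 and 2 of their vehicle values were late.

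**Figure D1:**
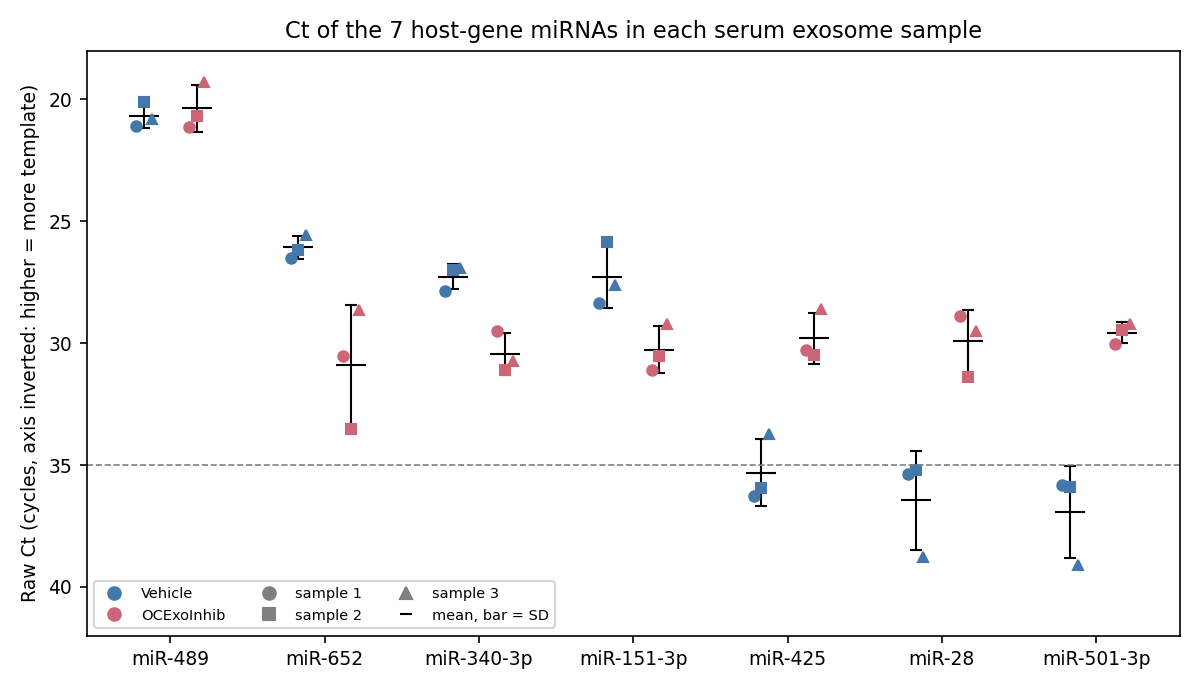
Raw Ct (cycles, inverted axis) of the 7 members in each of the 3 vehicle and 3 OCExoInhib samples; symbols mark the sample number, horizontal lines the group mean with SD bars, and the dashed line Ct 35. miR-489 lies near Ct 20 in both groups, while the other 6 members have group means between 26.1 and 36.9 in vehicle and between 29.6 and 30.9 in OCExoInhib samples.

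miR-489, from the calcitonin receptor gene, gave Ct values of 21.077, 20.094 and 20.819 in vehicle samples 1, 2 and 3. In OCExoInhib samples 1, 2 and 3 they were 21.128, 20.670 and 19.286. The groups overlapped, and OCExoInhib 3 was the earliest of the 6. Its mean Ct, 20.7 ± 0.510 in vehicle and 20.4 ± 0.959 in OCExoInhib samples (mean ± SD, n = 3 each), was the lowest of the 123 miRNAs with a Ct in both groups, followed by miR-29a at 20.98 and 21.2. The efficiencies of the assays are unknown here, so a rank by Ct is not a rank of molecule numbers. Relative to the reference wells the log2 difference of miR-489 was −0.42 (SE 0.75). It was 0.30 with no normalization, 0.76 with global mean normalization and 2.12 with each sample centred on its median Ct, where it passed the threshold, so its direction depended on the scaling.

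The other Calcr miRNA on the panel, miR-653, lies 511 bases from the miR-489 hairpin. Its Ct values were 27.385, 23.839 and 25.303 in vehicle samples and 23.922, 26.361 and 25.969 in OCExoInhib samples. These ranges overlapped almost wholly, and the log2 difference of −0.63 (95% interval −2.69 to 1.42) did not pass the threshold (limma adjusted p 0.866). Both miRNAs of the calcitonin receptor gene were thus measured in every sample without a detectable difference on the deposited scaling. The Ct of miR-489 minus that of miR-653 was −4.85 ± 1.32 cycles in vehicle and −5.06 ± 2.02 cycles in OCExoInhib samples (mean ± SD, n = 3 each).

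miR-501-3p had the largest difference among the members. Its Ct values were 35.812, 35.881 and 39.118 in vehicle samples 1, 2 and 3, each past Ct 35, where a value rests on few template molecules. In OCExoInhib samples they were 30.028, 29.458 and 29.206. Every OCExoInhib value was thus over 5 cycles earlier than every vehicle value, and vehicle 3 stood apart as the latest. The log2 difference was 6.65 (SE 0.89), a 100.3-fold higher level in OCExoInhib samples. Without vehicle 3 the log2 difference was 5.69, and without vehicle 1 it was 7.25. With all samples kept and late values set to Ct 35 it was 4.71 (SE 0.70), or at least 26.2-fold higher. All vehicle values were cut there, which also removes spread among them.

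The opposite arm of the same hairpin and the miRNA with the same seed did not show this difference. miR-501-5p gave Ct values of 30.939, 28.682 and 31.324 in vehicle and 30.190, 30.309 and 29.931 in OCExoInhib samples. Its log2 difference was −0.55 (95% interval −2.26 to 1.15, limma adjusted p 0.866). The groups overlapped, with the earliest and the latest value both in vehicle samples. miR-501-3p came up 4.87, 7.20 and 7.79 cycles after miR-501-5p in vehicle samples 1, 2 and 3. In OCExoInhib samples it came up slightly before it, by −0.162, −0.851 and −0.725 cycles. The order of the arms in Ct was thus opposite in the 2 groups in every sample, a description that rests on the values that chose miR-501-3p.

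miR-500 lies 3468 bases from the Mir501 hairpin in Clcn5, and its panel sequence is shown against that of miR-501-3p.
miR-500: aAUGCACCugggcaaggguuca
Both are identical at 18 of 22 positions, and the substitutions from miR-501-3p to miR-500, counted from the 5′ end, are C9U, A18G, U21C and G22A. The Ct values of miR-500 were 29.662, 30.190 and 30.237 in vehicle and 29.185, 30.802 and 30.552 in OCExoInhib samples. Its groups overlapped, and its log2 difference was −0.87 (95% interval −2.58 to 0.83, limma adjusted p 0.866). Whether the assays tell sequences this close apart was not tested. The other Clcn5 miRNAs on the panel, miR-362-3p, miR-362-5p, miR-532-3p, miR-532-5p, miR-188-3p and miR-188-5p, had no Ct in any sample.

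miR-28, from Lpp, gave Ct values of 35.352, 35.215 and 38.781 in vehicle samples 1, 2 and 3. In OCExoInhib samples they were 28.874, 31.383 and 29.509. The groups did not overlap, all vehicle values were late, and vehicle 3 was again the latest. The log2 difference was 5.80 (SE 0.95), a 55.8-fold higher level in OCExoInhib samples. It was 4.77 without vehicle 3, 5.20 without OCExoInhib 1 and 6.39 without vehicle 1. With all samples kept and late values set to Ct 35 it was 4.35 (SE 0.77), or at least 20.4-fold higher, since all vehicle values were cut there.

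miR-28 and miR-151 are known as related genes, and the panel sequence of the 5p arm of miR-151 shows the stretch they share.
miR-151-5p: uCGAGGAGcucacagucuagu
A run of 16 bases, which starts at base 2 of miR-28 and at base 4 of miR-151-5p, is identical, while the seeds are shifted against each other. miR-151-5p had no Ct in any of the 6 samples, and miR-28 was measured in all of them.

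miR-425 is encoded in Dalrd3 with miR-191, and 384 bases separate the hairpins. The Ct values of miR-425 were 36.268, 35.949 and 33.724 in vehicle and 30.299, 30.490 and 28.616 in OCExoInhib samples. The groups did not overlap, and here vehicle 3 was the earliest of its group, unlike for miR-28 and miR-501-3p. The log2 difference was 4.79 (SE 0.88), a 27.6-fold higher level, and 5.72 without vehicle 3. With all samples kept and late values set to Ct 35 it was 4.05 (SE 0.76), or at least 16.5-fold higher, since late vehicle values were cut there. With values at Ct 35 or later set to missing, vehicle 3 was the only vehicle value left, and the log2 difference of 2.92 did not pass the threshold.

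miR-191, the neighbour in Dalrd3, was at Ct 25.140, 25.959 and 25.634 in vehicle and 26.644, 26.347 and 24.410 in OCExoInhib samples. Its groups overlapped, and its log2 difference was −0.95 (95% interval −2.61 to 0.71, limma adjusted p 0.866). miR-425 came up 9.74 ± 1.53 cycles after miR-191 in vehicle and 4.00 ± 0.302 cycles after it in OCExoInhib samples (mean ± SD, n = 3 each). The miRNAs of this gene therefore lay closer together in every OCExoInhib sample than in any vehicle sample. Against miR-489, whose seed it shares, miR-425 came up 14.7 ± 1.55 cycles later in vehicle and 9.44 ± 0.338 cycles later in OCExoInhib samples. Both comparisons are descriptions that rest on the values that chose miR-425, and 2 of its vehicle values were late.

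**Figure D2:**
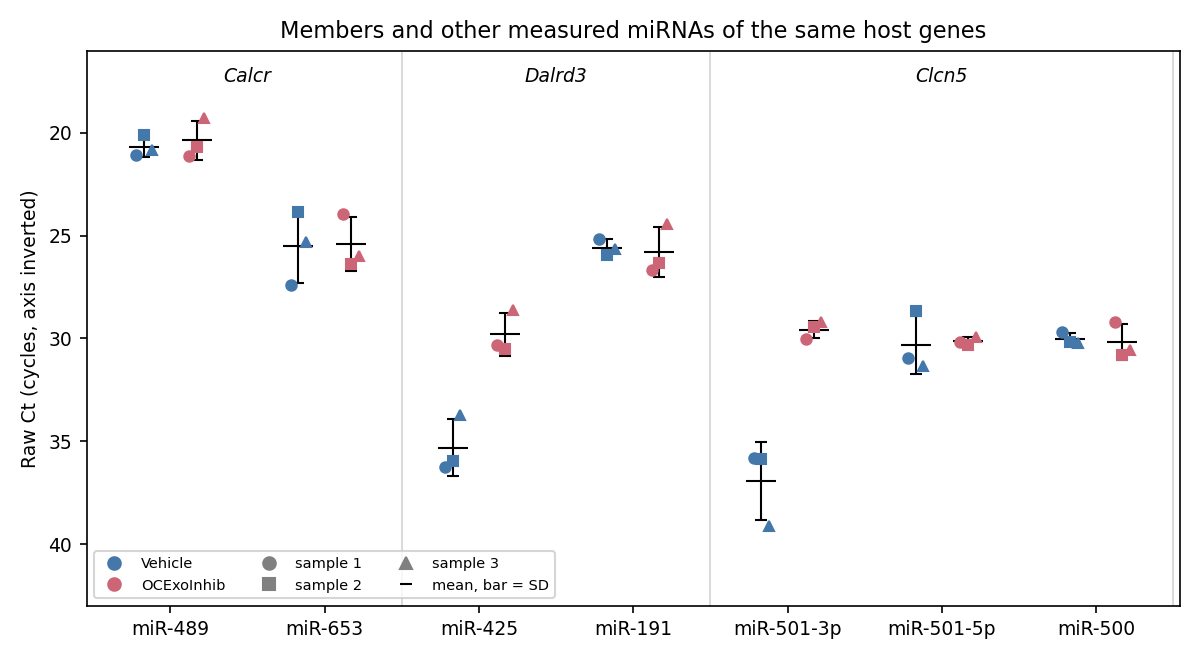
Raw Ct (cycles, inverted axis) of miR-489, miR-425 and miR-501-3p beside the other measured miRNAs of Calcr, Dalrd3 and Clcn5, with 3 vehicle and 3 OCExoInhib samples each, group means and SD bars. The groups are apart for miR-425 and miR-501-3p and overlap for miR-489, miR-653, miR-191, miR-501-5p and miR-500.

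miR-652, from Tmem164, had the largest fall among the 7 members. Its Ct values were 26.485, 26.161 and 25.547 in vehicle samples 1, 2 and 3 and 30.510, 33.511 and 28.624 in OCExoInhib samples. The vehicle values lay within 1 cycle of each other, whereas OCExoInhib 2 and OCExoInhib 3 lay far apart. The level SD was 0.687 in vehicle and 1.98 in OCExoInhib samples, the highest group SD of any member. The log2 difference was −5.54 (SE 0.95), a 46.6-fold lower level. It was −4.44 without OCExoInhib 2 and −6.38 without OCExoInhib 3, and with quantile normalization it was −4.27 and did not pass the threshold.

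miR-340-3p, from Rnf130, had Ct values of 27.869, 26.993 and 26.930 in vehicle and 29.479, 31.102 and 30.750 in OCExoInhib samples. Each OCExoInhib value was later than each vehicle value. The log2 difference was −3.90 (SE 0.80), a 15.0-fold lower level, and it ranged from −4.46 to −3.46 with single samples left out. It did not pass the threshold with quantile normalization (−2.49) or centred on sample medians (−1.36). The opposite arm, miR-340-5p, had no Ct in any sample.

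miR-151-3p, from the focal adhesion kinase gene Ptk2, had Ct values of 28.331, 25.860 and 27.613 in vehicle and 31.087, 30.517 and 29.201 in OCExoInhib samples. Its groups were apart by less than 1 cycle at their nearest values, vehicle 1 and OCExoInhib 3. The log2 difference was −3.72 (SE 0.80), a 13.2-fold lower level, and it ranged from −4.22 to −3.20 with single samples left out. With quantile normalization it was −1.97, and centred on sample medians −1.18, and neither passed the threshold. Its Ct values in all 3 OCExoInhib samples were the same, to the last digit given, as those of let-7e and miR-145, which are named here after their values were seen. For miR-151 and miR-340 only the 3p arm was measured, and for the Mir501 hairpin both arms were.

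**Figure D3:**
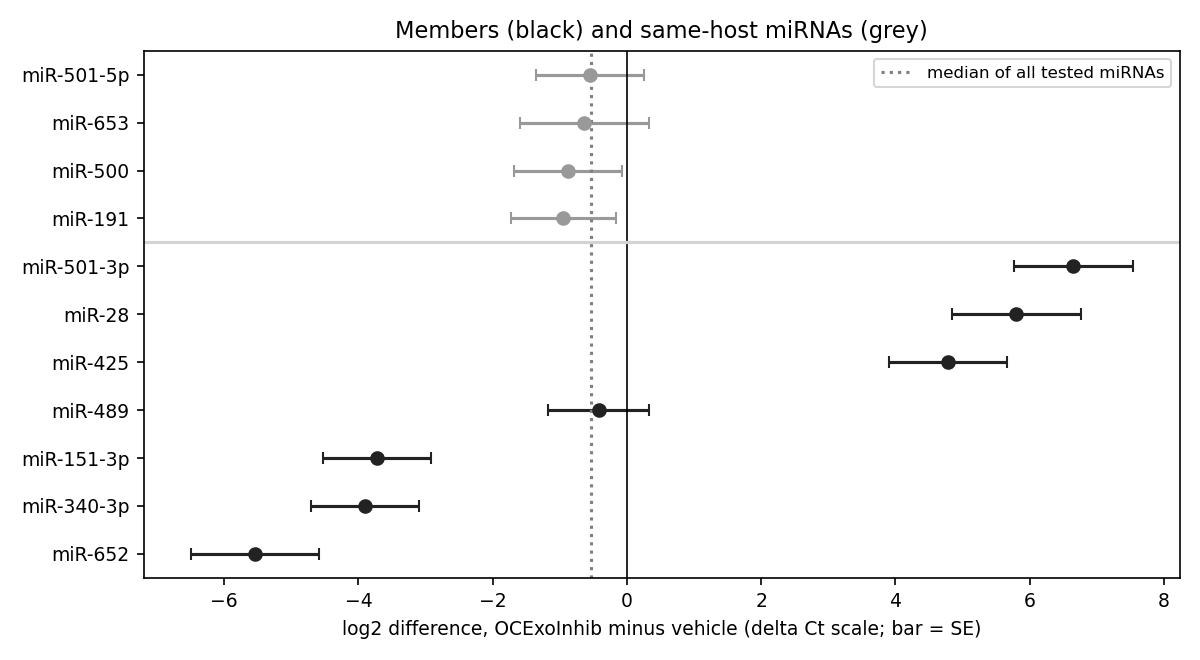
Log2 difference (OCExoInhib minus vehicle, with SE, 3 samples a group) of the 7 members in black and the 4 tested miRNAs of the same host genes in grey; the dotted line is the median of all tested miRNAs, −0.54. The members lie from −5.54 for miR-652 to 6.65 for miR-501-3p, and the same-host miRNAs from −0.95 to −0.55.

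Of the 23 names listed as same-host or sequence-related miRNAs, 12 were on the panel, 8 of these had no Ct in any sample, and 4 were tested. limma called 0 of the 4, beside 23.5% of all tested miRNAs in either direction, and 0 of the 4 had an unadjusted p under 0.05. Their median log2 difference was −0.75, against −0.54 over all tested miRNAs. The median over the members, −0.42, is the value of miR-489 alone, with 3 members called higher and 3 lower. Centred on sample medians, miR-501-5p passed as higher (log2 difference 1.99, limma adjusted p 0.0462). Among 39 other panel miRNAs from protein-coding host genes, 23 had no Ct and 15 were tested. Of these 15, 1 rose and 2 fell, beside 6.09% and 17.4% of all tested miRNAs, and their median was −0.59. miR-140, from Wwp2 and enriched in cartilage, was 55.8-fold higher (log2 difference 5.80, SE 0.82), from vehicle Ct values of 34.867 to 36.735. miR-107, from Pank1, was 303.6-fold lower (−8.25, SE 1.38), with OCExoInhib Ct values as far apart as 28.148 and 36.996, and miR-378, from Ppargc1b, was 36.2-fold lower (−5.18, SE 0.87). miR-106b, from Mcm7, had the next smallest p and did not pass (−0.94, SE 0.83).

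The order of the members by Ct differed between the groups. In vehicle samples miR-489 came first, then miR-652, then miR-340-3p and miR-151-3p at 27.264 and 27.268, and last miR-425, miR-28 and miR-501-3p. The ranges of miR-340-3p and miR-151-3p overlapped, as did those of neighbours among the last 3, and a gap of 8.05 cycles lay between miR-151-3p and miR-425. In OCExoInhib samples a gap of 9.20 cycles separated miR-489 from miR-501-3p, and the ranges of all neighbours among the other 6 overlapped. The mean Ct values of those 6 members spanned 10.9 cycles in vehicle and 1.32 cycles in OCExoInhib samples. There the mean of the reference wells was 30.2 ± 0.531 (SD, n = 3). The 6 were chosen with these values known, and the narrow span was not particular to them. Mean OCExoInhib levels relative to the wells were 0.87 for miR-140, −0.49 for miR-378, −0.09 for miR-16 and −0.07 for miR-21. They were −0.41 for miR-133a, −0.86 for miR-194 and, further off, −2.31 for miR-107, all called as well.

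Patterns over the 6 samples were compared by the mean absolute difference between levels centred on each miRNA's own mean. miR-489 was most like miR-33 and miR-210, at 0.304 and 0.422 cycles. miR-28 was most like miR-501-3p (0.786) and miR-127 (0.805), and miR-501-3p was most like miR-34a (0.540) and miR-29c (0.650). The miRNAs most like miR-425 were miR-140 at 0.833 and miR-29c at 1.08 cycles. Among the members that fell, miR-151-3p was most like miR-145 (0.381) and let-7a (0.541). miR-340-3p was most like miR-21 (0.638) and let-7a (0.752), and miR-652 was most like let-7e (0.915) and miR-194 (0.931). All miRNAs were read from the same 6 samples. Levels were centred over both groups, so these distances contain the group difference that was known when the members were chosen. That the neighbours of a called member moved in its direction follows from this. miR-145 shares its OCExoInhib Ct values with miR-151-3p. let-7a, let-7e, miR-21, miR-194, miR-34a and miR-29c carry a repeated Ct difference as described next, while miR-33, miR-210, miR-127 and miR-140 do not.

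Some members shared an exact Ct difference between samples with other miRNAs. A difference between the same samples of a group was counted as repeated when at least 5 miRNAs held it within 0.0015 cycles. Of the 7 members, 4 carried such a difference, as did 23 of the 115 tested miRNAs and 22 of the 27 called. miR-652 and miR-340-3p were among 17 miRNAs with vehicle 1 later than vehicle 3 by 0.939 cycles. miR-501-3p and miR-151-3p were among 10 with OCExoInhib 1 later than OCExoInhib 2 by 0.570 cycles, and miR-652 and miR-151-3p among 10 with OCExoInhib 1 later than OCExoInhib 3 by 1.886 cycles. miR-489, miR-28 and miR-425 carried none. The part of these shared differences in the results was not tested. With miRNAs that carried one left out, miR-28 and miR-425 were called higher, miR-489 did not pass and no member was left that fell.

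The scaling of the samples moved every member. In the reference wells the Ct averaged 30.9 ± 0.318 over the vehicle and 30.2 ± 0.531 over the OCExoInhib samples (mean ± SD, n = 3 each), a difference of −0.725 cycles with an exact two-sided permutation p of 0.2, where 0.1 is the smallest that 3 against 3 samples can give. Over all tested miRNAs the median log2 difference was −0.54 on the deposited scaling, 0.64 after global mean and 0.20 after quantile normalization, 0.18 on raw Ct and 2.00 centred on sample medians. The members called higher and lower were 3 and 3 on the deposited scaling, 3 and 3 with global mean and with no normalization, 3 and 0 with quantile normalization, and 4 and 1 centred on sample medians. Over all tested miRNAs 7 were higher and 20 lower on the deposited scaling, 7 and 14 with global mean and 7 and 15 with no normalization. They were 7 and 9 with quantile normalization, and 56 and 11 centred on sample medians. The signs of miR-501-3p, miR-28, miR-425, miR-652, miR-340-3p and miR-151-3p were the same under these 5 scalings. Centred on sample medians, miR-652 was at −3.00 and passed, and it was the only member that fell to do so.

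**Figure D4:**
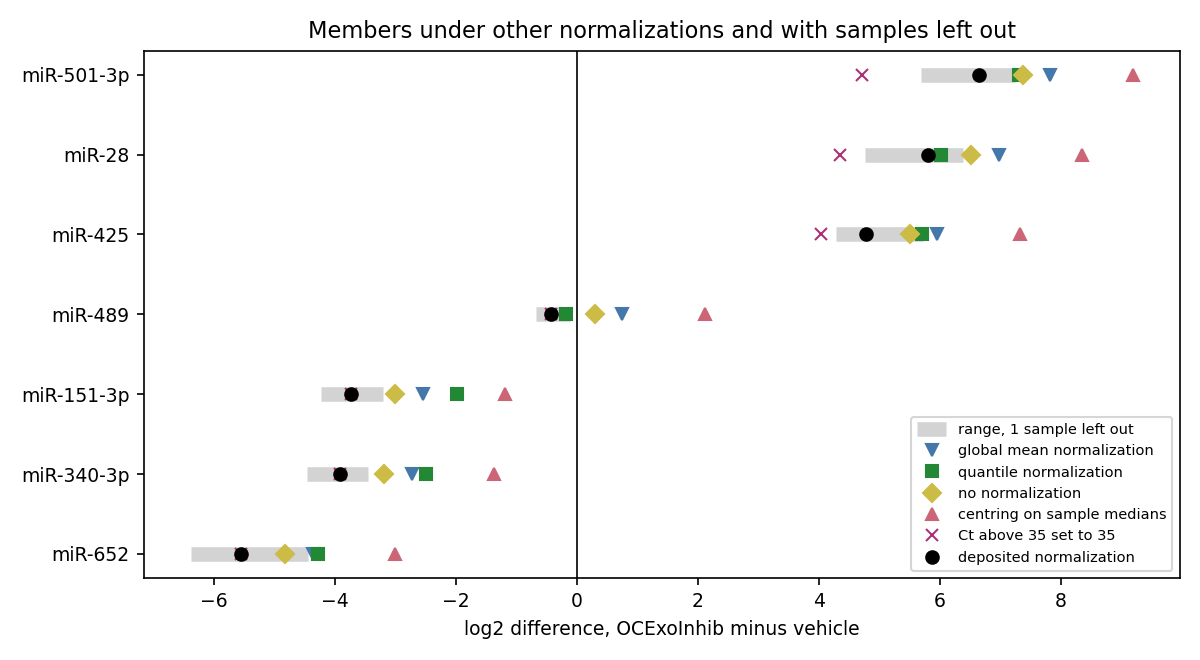
Log2 difference (OCExoInhib minus vehicle) of each member on the deposited normalization (black) and under other scalings and with Ct above 35 set to 35 (coloured symbols); grey bars span the values with each of the 6 samples left out. The points of miR-489 lie on both sides of 0, and those of each other member lie on a single side.

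Also looked up were miRNAs taken here as markers of cell types that shed RNA into serum. Whether each is restricted to its cell type was not checked. Of 19 markers of erythrocytes, platelets, leukocytes, liver, muscle and brain, 9 had no Ct, among them miR-451, miR-486, miR-122 and miR-142-3p, and 9 were tested, while miR-223 came up after Ct 35 in all 6 samples and was not tested. miR-16, miR-21, miR-194 and miR-133a were lower in OCExoInhib samples and 0 of the 9 were higher, beside 17.4% and 6.09% of all tested miRNAs. miR-144, miR-150, miR-192, miR-206 and miR-128 were not called (log2 differences −0.56, 0.44, −0.16, −0.28 and −0.03). Each marker that fell was among the 17 miRNAs with vehicle 1 later than vehicle 3 by 0.939 cycles. The mean level of the measured markers lay between 1.80 and 3.20 in the vehicle samples and between 0.55 and 0.77 in the OCExoInhib samples, and their part in the differences of the members was not tested.

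In the authors' deposited table the folds of vehicle over OCExoInhib were 46.6 for miR-652, 15.0 for miR-340-3p, 13.2 for miR-151-3p and 1.34 for miR-489. In that same authors' deposited table those of the members that were higher in OCExoInhib samples were 0.036 for miR-425, 0.018 for miR-28 and 0.010 for miR-501-3p.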

How the data were processed

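Per the labels' protocols, RNA of serum exosomes was purified on columns, made into cDNA and measured by SYBR Green PCR with a mouse exosome panel (ViiA7, 40 cycles). The raw Ct values of 384 wells were taken as a score, as deposited per the file headers. Per the file headers the authors normalized each target to a spike-in, and these log2-scale values equalled the Ct after subtraction of the average of wells P21 to P23. The authors' deposited fold table was used only for comparison. How the fluorescence threshold was set and when a well was left without a Ct is not given in the sources used here. No column of per-sample values was left out (0 columns).

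The group difference was fitted with lmFit and eBayes of limma 3.58.1 under R 4.3.3 (two-sided, Benjamini-Hochberg adjustment over 115 miRNAs, threshold 0.05). The fit was tested on simulated, independent normal values without late cycles or repeated Ct differences, so that test does not cover these. The reference wells were compared with an exact permutation test in scipy 1.17.1 under Python 3.11.15. The members, lists and alternatives were chosen with earlier results of these data known. Named miRNAs are the members, their same-host or sequence-related miRNAs, the 2 nearest patterns of each member, up to 4 other intronic miRNAs with the smallest p, and the listed markers. Replicate numbers were not taken as pairs in the main fit. The correlations of same-numbered deviations were 0.0587, 0.0177 and 0.117, which does not settle whether the samples were paired. The precision is limited by 3 samples a group and, at late cycles, by few template molecules.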

Additional observations from a re-analysis of the deposited data

How the results depend on the processing

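The members called were 3 higher and 3 lower with global mean normalization (all miRNAs: 7 higher, 14 lower) and with no normalization (7 and 15). Without the filter on late cycles, or with Ct above 35 set to 35, they were also 3 and 3 (all miRNAs: 7 and 20). The same held with a trended and robust prior (7 and 20) and with the replicate number as a block (7 and 18). With single samples left out there were 3 to 3 members higher and 3 to 3 lower, 7 to 7 miRNAs higher and 17 to 20 lower in all, 0 to 0 same-host miRNAs, with a difference of −0.942 to −0.429 cycles in the reference wells, an alternative added later. A Ct under 35 in all samples left 0 members and 0 miRNAs higher by limma (0 at an unadjusted p under 0.05), because late vehicle values removed them. Late values set to missing left 0 members (1 at an unadjusted p under 0.05) and 3 miRNAs higher, and gave no value for miR-28 or miR-501-3p. Quantile normalization left 0 members lower by limma (2 at an unadjusted p under 0.05) and 9 miRNAs lower. Centring on sample medians gave 1 member lower, 56 miRNAs higher and 11 lower, and 1 same-host miRNA. Without miRNAs that carry a repeated Ct difference, 0 members (0 at an unadjusted p under 0.05) and 1 miRNA were lower and 4 higher, since 4 members were left out. Where no construction is named, the cause was not tested. No called member turned its sign under those alternatives that gave it a value, and the members were chosen with their differences known.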
